A study of Mus musculus with 9 samples.

Results

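The values described here are those of 10 genes of the naive pluripotency network other than the Klf factors: Esrrb, Tfcp2l1, Tbx3, Zfp42, Prdm14, Nr0b1, Nr5a2, Tcl1, Gbx2 and Fbxo15. They were taken as a list of names from a table of 44788 genes, and all 10 were found in it and passed the filter on low values. The list was chosen with earlier results of these data known. Its counts and medians are therefore set beside those of all genes as a description only. Tcl1 and Fbxo15 belong to the network but are not transcription factors: Tcl1 is a co-activator of the kinase Akt, and Fbxo15 is an F-box protein.

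The levels came from RNA-seq of J1, a mouse ESC line that was kept undifferentiated and cultured with LIF and without serum or feeder cells. The groups were Foxj3-ES and Zbtb18-ES, in which lentivirus had stably introduced the coding sequence of the forkhead factor Foxj3 or of the zinc finger repressor Zbtb18, and control ESCs, labelled wild type, with 3 libraries each. No group was labelled as carrying an empty vector, so the introduced gene cannot be told apart from transduction and the making of the line. Nothing in the labels says whether the 3 libraries of a group came from separate cultures or clones. The p-values can therefore speak only of the spread among these libraries. The values are RPKM (reads per kilobase of gene, scaled by library) divided by the upper quartile of each library, and are called UQRPKM. RPKM takes gene length into account, so levels of different genes can be set side by side.

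A naive ESC corresponds to the epiblast of the embryo before implantation. It keeps its state through the core factors Oct4 (Pou5f1), Sox2 and Nanog together with a ring of naive factors. LIF acts through Stat3 on Tfcp2l1, Gbx2 and Klf4. Inhibition of Gsk3, or loss of the Wnt pathway repressor Tcf7l1, acts largely through Esrrb. Prdm14 represses DNA methyltransferase genes and signalling by FGF receptors. Several of these factors can replace one another in part, and they are shut down when ESCs move towards the formative and primed state.

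The libraries differed in depth and in composition. The step between low values gave an estimate of 10890000 to 15330000 reads per library, which rests on gene lengths from GENCODE M21. Between 288 and 386 genes lay at this step in each library, but 48 to 69 lay at a step of 0.5 of it. If the smaller step were 1 read, every estimated read number given here would be 2 times as large. The summed UQRPKM of all genes was 8086200 to 8416870 in Foxj3-ES, 7054410 to 7449340 in Zbtb18-ES and 6229490 to 6874840 in control ESCs. Control replicate 2 stood apart in base composition: the 10% of mRNA genes richest in GC exceeded the 10% poorest in it by 0.99 on the log2 scale there, each gene relative to its mean over all libraries, against -0.53 to 0.21 in the other 8 libraries. The transcripts of the introduced genes gave no check of the labels. Foxj3 was at 119.2, 168.4 and 176.7 UQRPKM in Foxj3-ES and at 123.9, 145.1 and 114.7 UQRPKM in control ESCs (log2 fold change 0.26, adjusted p = 0.388). Zbtb18 was at 34.9, 129.1 and 57.0 UQRPKM in Zbtb18-ES and at 46.4, 65.4 and 49.0 UQRPKM in control ESCs (log2 fold change 0.26, adjusted p = 0.715). In both cases the groups overlapped, and Zbtb18-ES replicate 1 lay below every control. Each direction given below therefore rests on the labels Foxj3-ES and Zbtb18-ES alone.

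The ESC marker Pou5f1 was at 17716 to 18268 UQRPKM in Foxj3-ES, 16904 to 20887 UQRPKM in Zbtb18-ES and 13277 to 14115 UQRPKM in control ESCs. The 7 markers of primitive endoderm summed to 14.4 to 22.2 UQRPKM in Foxj3-ES, 13.0 to 20.2 UQRPKM in Zbtb18-ES and 26.8 to 27.7 UQRPKM in control ESCs, and of the 5 of them that were tested none passed in either line. Dab2, which was too low to be tested, did not exceed 0.33 UQRPKM in any library, and the trophoblast factor Cdx2 did not exceed 3.60 UQRPKM. Over all genes tested, 7.01% were called lower and 7.54% higher in Foxj3-ES at an adjusted p under 0.05 from limma. In Zbtb18-ES 6.5% were called lower and 5.31% higher. Of the 6 ESC markers 3 fell in each line and none rose: Lin28a and Nanog in both, Sox2 in Foxj3-ES and Utf1 in Zbtb18-ES. The 4 mesoderm markers summed to 28.0 to 38.4 UQRPKM in Foxj3-ES, 41.5 to 53.5 UQRPKM in Zbtb18-ES and 59.2 to 65.2 UQRPKM in control ESCs, and 3 of them were called lower in Foxj3-ES and 1 was in Zbtb18-ES. The 6 trophoblast markers summed to 149.9 to 169.0 UQRPKM in Foxj3-ES, 116.8 to 174.1 UQRPKM in Zbtb18-ES and 171.8 to 248.1 UQRPKM in control ESCs; 1 of them, the shared mesoderm marker Eomes, fell in Foxj3-ES. Most of this sum was Tfap2c, at 118.7 to 126.0 UQRPKM in Foxj3-ES, 62.6 to 128.5 UQRPKM in Zbtb18-ES and 111.6 to 194.4 UQRPKM in control ESCs, a level near that of Prdm14 in control ESCs, and its changes did not pass. Eomes followed, with at most 58.4 UQRPKM in any library. The sum hides low markers that went the other way. Over the 5 tested, the median log2 fold change was -0.22 in Foxj3-ES and 0.49 in Zbtb18-ES. Hand1 changed by 1.40 in Foxj3-ES and 1.28 in Zbtb18-ES, neither of which passed (adjusted p = 0.126 and 0.168). It did not exceed 6.30 UQRPKM in any library. Whether other cells had a part in the results below was not tested.

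Promoter sequences of 4 of the genes are given first, since they represent the patterns described below: Gbx2 was lower in both lines, Tcl1 was lower in Foxj3-ES, Tfcp2l1 was lower in Zbtb18-ES, and Zfp42 passed the test in neither. Each is the 250 bases before the transcription start given by RefSeq (GRCm38.p6), read 5′ to 3′ on the strand of the gene, and capitals mark a motif that was found.
Gbx2, chr1:89931177-89931426, minus strand: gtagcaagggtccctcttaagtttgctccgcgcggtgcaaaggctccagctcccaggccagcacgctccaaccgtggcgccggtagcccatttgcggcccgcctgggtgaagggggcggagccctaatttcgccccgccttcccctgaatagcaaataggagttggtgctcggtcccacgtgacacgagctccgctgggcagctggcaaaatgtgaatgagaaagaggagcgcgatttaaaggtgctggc
Tcl1, chr12:105222738-105222987, minus strand: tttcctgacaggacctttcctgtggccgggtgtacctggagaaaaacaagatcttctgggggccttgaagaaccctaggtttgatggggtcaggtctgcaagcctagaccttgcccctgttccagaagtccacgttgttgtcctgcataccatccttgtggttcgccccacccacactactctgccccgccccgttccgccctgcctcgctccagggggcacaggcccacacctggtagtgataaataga
Tfcp2l1, chr1:118627695-118627944, plus strand: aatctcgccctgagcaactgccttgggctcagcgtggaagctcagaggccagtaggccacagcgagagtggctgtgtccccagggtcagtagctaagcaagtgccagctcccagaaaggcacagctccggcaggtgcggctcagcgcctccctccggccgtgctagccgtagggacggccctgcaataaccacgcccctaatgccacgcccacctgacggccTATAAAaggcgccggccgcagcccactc
Zfp42, chr8:43307010-43307259, minus strand: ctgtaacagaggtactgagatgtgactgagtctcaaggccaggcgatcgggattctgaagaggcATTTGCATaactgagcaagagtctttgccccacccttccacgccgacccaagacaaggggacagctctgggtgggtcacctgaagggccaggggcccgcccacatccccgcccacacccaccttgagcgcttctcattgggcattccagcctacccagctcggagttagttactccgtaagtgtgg

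These windows were searched on both strands for the forkhead core motif GTAAACA, the Zbtb18 motif ACATCTG, the single receptor site AAGGTCA bound by Esrrb and Nr5a2, the octamer ATGCAAAT bound by Oct4, the STAT motif TTCCNGGAA and the TATA box letters TATAAA, the last of which was added after the windows had been seen. RefSeq gave 9 windows for 7 of the genes, with separate starts for Esrrb and Nr5a2, and the table used held none for Tbx3, Prdm14 and Fbxo15. None of the 9 windows held the forkhead, Zbtb18, single receptor site or STAT letters, which occurred in 3.17%, 3.71%, 4.08% and 0.913% of all 32851 windows. The octamer was found in 1 of the 9, that of Zfp42, where it reads ATTTGCAT because it lies on the other strand and begins 186 bases before the start; 1.6% of all windows held it. TATAAA was found in 3 of the 9, against 12.4% of all windows. It began 28 bases before the start of Tfcp2l1 and 32 bases before that of Nr0b1, and on the opposite strand 181 bases before 1 start of Nr5a2. The Gbx2 and Tcl1 windows held none of these motifs. GC content was 61.6% in the Gbx2 window, 57.6% in that of Tcl1, 65.2% in that of Tfcp2l1 and 58.4% in that of Zfp42, and its median over all windows was 52.4%.

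Of the 10 genes, 4 fell in Foxj3-ES and none rose, at an adjusted p under 0.05 from limma over the 22268 genes tested. They were Gbx2, Tcl1, Prdm14 and Esrrb. Over all genes tested, 7.01% were called lower and 7.54% higher in this comparison. The fold changes of all 10 genes were negative, with a median of -0.76 on the log2 scale against -0.03 for all genes tested. In 8 of the 10, every Foxj3-ES library lay below every control, which held for 18.5% of the genes tested; an exact permutation test of 3 libraries against 3 cannot give a two-sided p below 0.1.

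In Zbtb18-ES, too, 4 of the 10 genes fell and none rose: Gbx2, Tfcp2l1, Nr5a2 and Prdm14. Here 6.5% of the genes tested were called lower and 5.31% higher. Of the 10 fold changes 7 were negative and 3 positive, and their median was -0.57 against -0.02 for all genes tested. Every Zbtb18-ES library lay below every control in 5 of the genes (20.0% of the genes tested), and above every control in 1, Fbxo15 (14.8% of the genes tested). Gbx2 and Prdm14 were thus called lower in both lines. The comparisons share the control libraries. Scaling all libraries to the same sum moved the median change of all genes (-0.35 in Foxj3-ES, -0.16 in Zbtb18-ES) and gave other splits of the calls. In Foxj3-ES it gave 4700 lower and 873 higher genes, where the values as deposited gave 1562 lower and 1679 higher. In Zbtb18-ES it gave 2747 lower and 897 higher genes, where the values as deposited gave 1447 lower and 1182 higher. It raised the number of the 10 genes called lower in Foxj3-ES to 8.

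**Figure D1:**
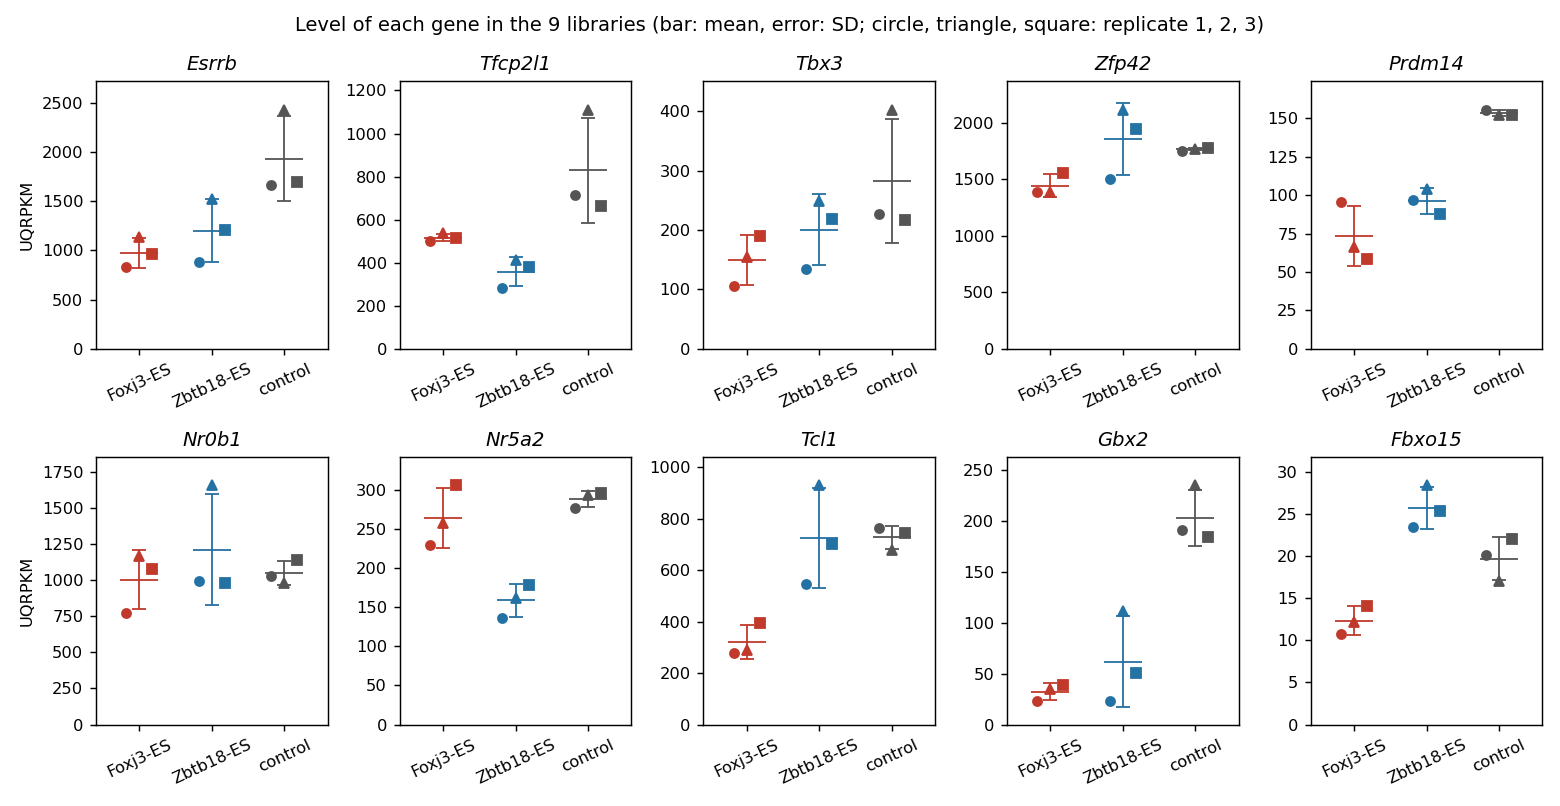
Level of each of the 10 genes in UQRPKM in Foxj3-ES (red), Zbtb18-ES (blue) and control ESCs (grey), on a linear axis from 0; circles, triangles and squares are replicates 1, 2 and 3, and horizontal bars with error bars are means with SD (n = 3 libraries). Gbx2 lies at 23.2 to 38.3 UQRPKM in Foxj3-ES and 23.2 to 111.0 UQRPKM in Zbtb18-ES, below the controls at 184.3 to 234.7 UQRPKM, while the groups of Nr0b1 overlap.

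Among the genes that act downstream of LIF, Gbx2 changed most. It encodes a homeobox factor that can sustain ESC self-renewal when overexpressed, and lies at chr1:89927956-89931179 (GRCm38, minus strand). Its level was 23.2, 35.3 and 38.3 UQRPKM in Foxj3-ES, 23.2, 111.0 and 50.7 UQRPKM in Zbtb18-ES and 190.5, 234.7 and 184.3 UQRPKM in control ESCs. No library of either line reached the lowest control, and Zbtb18-ES replicate 2 was the highest of the 6. The mean ratio to control was 0.159 in Foxj3-ES (log2 fold change -2.64, standard error 0.45, adjusted p = 0.00584) and 0.303 in Zbtb18-ES (log2 fold change -1.97, standard error 0.45, adjusted p = 0.0224). The fall in Foxj3-ES passed under all 20 alternatives tried. The fall in Zbtb18-ES did not pass without Zbtb18-ES replicate 3 (adjusted p = 0.0630) or without control replicate 1, 2 or 3 (0.0554, 0.0642 and 0.0541). Those fits called 650 to 887 of all genes lower in Zbtb18-ES, against 1447 with all libraries. About 37 to 75 reads were estimated for Gbx2 in the Foxj3-ES libraries, 51 to 277 in the Zbtb18-ES libraries and 435 to 512 in the controls.

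Tfcp2l1, a grainyhead family factor through which LIF and Stat3 maintain the naive state, lies at chr1:118627945-118685168 (plus strand). Its 3 libraries were at 500.8, 536.0 and 513.2 UQRPKM in Foxj3-ES, 282.2, 410.9 and 381.8 UQRPKM in Zbtb18-ES and 713.2, 1111 and 662.0 UQRPKM in control ESCs. The groups did not overlap, and Zbtb18-ES was the lowest. In Zbtb18-ES it fell by 1.19 on the log2 scale (standard error 0.21, adjusted p = 0.00817), a call that held in all 20 alternatives. In Foxj3-ES the log2 fold change was -0.64 and did not pass (95% interval -1.10 to -0.18, adjusted p = 0.0641), although it passed in 4 of the 20 alternatives.

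Tbx3 encodes a T-box factor that helps to keep Nanog expressed and acts mainly downstream of PI3K and Akt. It was at 105.7, 155.3 and 189.2 UQRPKM in Foxj3-ES, 133.8, 249.3 and 218.9 UQRPKM in Zbtb18-ES and 226.9, 402.3 and 216.5 UQRPKM in control ESCs. All Foxj3-ES libraries were below the controls, while Zbtb18-ES overlapped with them. Neither log2 fold change passed (-0.89 in Foxj3-ES, 95% interval -1.58 to -0.19, adjusted p = 0.0864; -0.48 in Zbtb18-ES, 95% interval -1.17 to 0.22, adjusted p = 0.358). The longest transcripts of Tbx3, Esrrb, Tfcp2l1 and Gbx2 had a GC content of 54.2%, 54.9%, 47.0% and 59.4%. Each of these genes was highest in control replicate 2, the library that stood apart in GC content. Among the controls, Nr0b1, Tcl1 and Fbxo15, at 55.2%, 52.1% and 43.4%, were lowest in that library, and the cause was not tested. Without that library the log2 fold changes in Foxj3-ES were -0.60 for Tbx3 (adjusted p = 0.224), -0.80 for Esrrb (adjusted p = 0.0432), -0.41 for Tfcp2l1 (adjusted p = 0.130) and -2.53 for Gbx2 (adjusted p = 0.0167). In Zbtb18-ES they were -0.19 for Tbx3 (adjusted p = 0.749), -0.52 for Esrrb (adjusted p = 0.179), -0.96 for Tfcp2l1 (adjusted p = 0.0119) and -1.86 for Gbx2 (adjusted p = 0.0642). The change of Tbx3 in Zbtb18-ES was also smaller without Zbtb18-ES replicate 1 (-0.21) and when GC content and length were corrected for (-0.25).

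Of the nuclear receptors, Esrrb fell in Foxj3-ES. It encodes an orphan receptor that binds many of the sites of Oct4 and Nanog, and lies at chr12:86361117-86521628 (plus strand). Its level was 831, 1133 and 959.8 UQRPKM in Foxj3-ES, 881, 1518 and 1203 UQRPKM in Zbtb18-ES and 1667, 2429 and 1700 UQRPKM in control ESCs. Both lines lay below all controls. The mean ratio to control was 0.504 in Foxj3-ES (log2 fold change -0.98, standard error 0.22, adjusted p = 0.0180) and 0.621 in Zbtb18-ES (log2 fold change -0.70, standard error 0.22, adjusted p = 0.0696). The first did not pass without Foxj3-ES replicate 1 (adjusted p = 0.0673). The second passed in 5 of 20 alternatives, among them without Zbtb18-ES replicate 2 (-0.89, adjusted p = 0.0434). It was smaller when GC content and length were corrected for (-0.44, adjusted p = 0.143) and without Zbtb18-ES replicate 1 (-0.49, adjusted p = 0.199).

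Nr5a2 fell in Zbtb18-ES. It encodes the liver receptor homologue, which binds regulatory regions of Pou5f1 and can take its place in reprogramming, and lies at chr1:136842571-136960448 (minus strand). Levels were 229.4, 258.3 and 305.8 UQRPKM in Foxj3-ES, 136.4, 161.6 and 178.4 UQRPKM in Zbtb18-ES and 277.3, 294.0 and 295.9 UQRPKM in control ESCs. The Foxj3-ES libraries spread over the range of the controls, and the Zbtb18-ES libraries were below all others. Relative to control, Nr5a2 changed in Zbtb18-ES by -0.87 on the log2 scale (standard error 0.15; adjusted p = 0.00845), and the call held in all 20 alternatives. In Foxj3-ES its change was -0.14 (95% interval -0.48 to 0.20, adjusted p = 0.597).

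Nr0b1 (Dax1) is an orphan receptor without the usual DNA-binding domain that binds Oct4 and limits its activity. It was at 773, 1167 and 1075 UQRPKM in Foxj3-ES, 993.9, 1657 and 982.9 UQRPKM in Zbtb18-ES and 1031, 981.5 and 1138 UQRPKM in control ESCs. The 3 groups overlapped. The change was -0.08 in Foxj3-ES (95% interval -0.58 to 0.41, adjusted p = 0.845) and 0.16 in Zbtb18-ES (95% interval -0.33 to 0.66, adjusted p = 0.685).

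Prdm14, the repressor of FGF receptor signalling and DNA methyltransferase genes, lies at chr1:13113457-13127163 (minus strand) and fell in both lines. It was at 95.4, 66.5 and 58.3 UQRPKM in Foxj3-ES, 96.8, 104.3 and 87.5 UQRPKM in Zbtb18-ES and 155.7, 152.2 and 152.1 UQRPKM in control ESCs. The controls lay close together, above every library of the lines. The log2 fold change was -1.08 in Foxj3-ES (standard error 0.19, adjusted p = 0.00639), which held in all 20 alternatives, and -0.67 in Zbtb18-ES (standard error 0.19, adjusted p = 0.0481). The call in Zbtb18-ES was close to the threshold and was lost in 10 of 20 alternatives. It did not pass without Zbtb18-ES replicate 1, 2 or 3 (adjusted p = 0.107, 0.0720 and 0.145), without control replicate 1, 2 or 3 (0.122, 0.0873 and 0.115) or without Foxj3-ES replicate 2 (0.0599). Those fits called 650 to 1324 of all genes lower in Zbtb18-ES, against 1447 with all libraries. Nor did the call pass without a filter (0.0635), after quantile normalization (0.0650) or with a replicate block (0.0572).

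Tcl1, the Akt co-activator, lies at chr12:105216750-105222793 (minus strand). It was at 276.2, 290.2 and 396.2 UQRPKM in Foxj3-ES, 545.1, 929.8 and 701.7 UQRPKM in Zbtb18-ES and 762.7, 676.7 and 745.6 UQRPKM in control ESCs. The Foxj3-ES libraries were below all others, and the Zbtb18-ES libraries lay on both sides of the controls. Tcl1 fell in Foxj3-ES to a mean ratio of 0.441 (log2 fold change -1.20, standard error 0.20, adjusted p = 0.00557), in all 20 alternatives. In Zbtb18-ES the change was -0.04 (95% interval -0.49 to 0.41, adjusted p = 0.932).

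Zfp42 (Rex1) is the zinc finger gene most used to mark naive ESCs, and it arose as a copy of Yy1. It was at 1382, 1388 and 1557 UQRPKM in Foxj3-ES, 1502, 2113 and 1946 UQRPKM in Zbtb18-ES and 1751, 1769 and 1773 UQRPKM in control ESCs. The Foxj3-ES libraries were below the controls, which lay close together, and the Zbtb18-ES libraries were on both sides of them. Its log2 fold change was -0.29 in Foxj3-ES (95% interval -0.61 to 0.03, adjusted p = 0.205) and 0.06 in Zbtb18-ES (95% interval -0.26 to 0.38, adjusted p = 0.845), and the sign in Zbtb18-ES turned with the scaling, to -0.10 with all libraries at the same sum.

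Fbxo15, the F-box gene whose locus served as a reporter in early reprogramming work, had the lowest level of the 10 genes in all 3 groups. It was at 10.7, 12.2 and 14.1 UQRPKM in Foxj3-ES, 23.5, 28.4 and 25.4 UQRPKM in Zbtb18-ES and 20.1, 17.0 and 22.0 UQRPKM in control ESCs. All Foxj3-ES libraries were below the controls and all Zbtb18-ES libraries above them. Neither change passed the test: it was -0.64 in Foxj3-ES (95% interval -1.20 to -0.07, adjusted p = 0.123) and 0.37 in Zbtb18-ES (95% interval -0.19 to 0.93, adjusted p = 0.377). An estimated 20 to 33, 58 to 84 and 44 to 65 reads lay behind these values in Foxj3-ES, Zbtb18-ES and control ESCs.

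**Figure D2:**
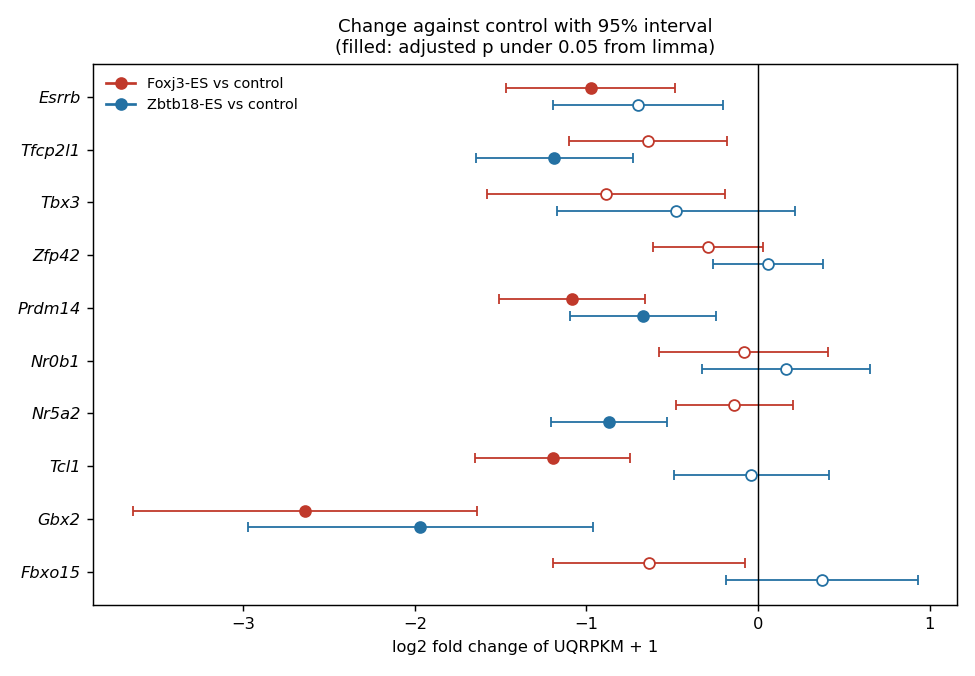
Log2 fold change of UQRPKM + 1 against control for each gene in Foxj3-ES (red, upper point) and Zbtb18-ES (blue, lower point), with 95% intervals from limma; filled points have an adjusted p under 0.05. In each line 4 points are filled, and all of these lie left of 0, from -2.64 to -0.67.

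The lines were then compared with each other. The control libraries enter this comparison only through the estimate of the spread and the choice of genes tested. Of the 10 genes, 1 was higher in Zbtb18-ES than in Foxj3-ES and none was lower, where 0.328% of the genes tested were called higher and 0.359% lower. This was Tcl1, with a log2 difference of 1.16 (95% interval 0.71 to 1.61, standard error 0.20, adjusted p = 0.0356), a mean ratio of 2.26. It did not pass without Foxj3-ES replicate 1 or 2 (adjusted p = 0.111 and 0.116), without Zbtb18-ES replicate 2 or 3 (0.0800 and 0.136) or without control replicate 1 or 3 (0.0598 and 0.0692). Those fits called 14 to 51 of all genes higher in Zbtb18-ES, against 73 with all libraries. Nor did Tcl1 pass with a replicate block (0.0625), with no filter (0.0696) or with only the libraries of the 2 lines in the fit (0.0819). Scaling all libraries to the same sum moved the median difference of all genes to 0.16, with 157 genes higher and 48 lower against 73 and 80 as deposited, and Tcl1 passed there too (1.35, adjusted p = 0.0264). The other 9 differences did not pass. Nr5a2 differed by -0.73 (95% interval -1.07 to -0.39, adjusted p = 0.0650), Fbxo15 by 1.01 (95% interval 0.45 to 1.57, adjusted p = 0.102) and Tfcp2l1 by -0.54 (95% interval -1.0 to -0.09, adjusted p = 0.236). The libraries of the lines did not overlap for these genes or for Tcl1, that is for 4 of the 10, against 21.4% of the genes tested. For Esrrb, which was called in Foxj3-ES and not in Zbtb18-ES, the difference was 0.28 (95% interval -0.22 to 0.77, adjusted p = 0.590). The difference of Gbx2 was 0.67 (95% interval -0.33 to 1.68), and it moved to 0.12 without Zbtb18-ES replicate 2, and to 1.22 when replicate 1 of that line was left out. That of Prdm14 was 0.41 (95% interval -0.01 to 0.84).

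**Figure D3:**
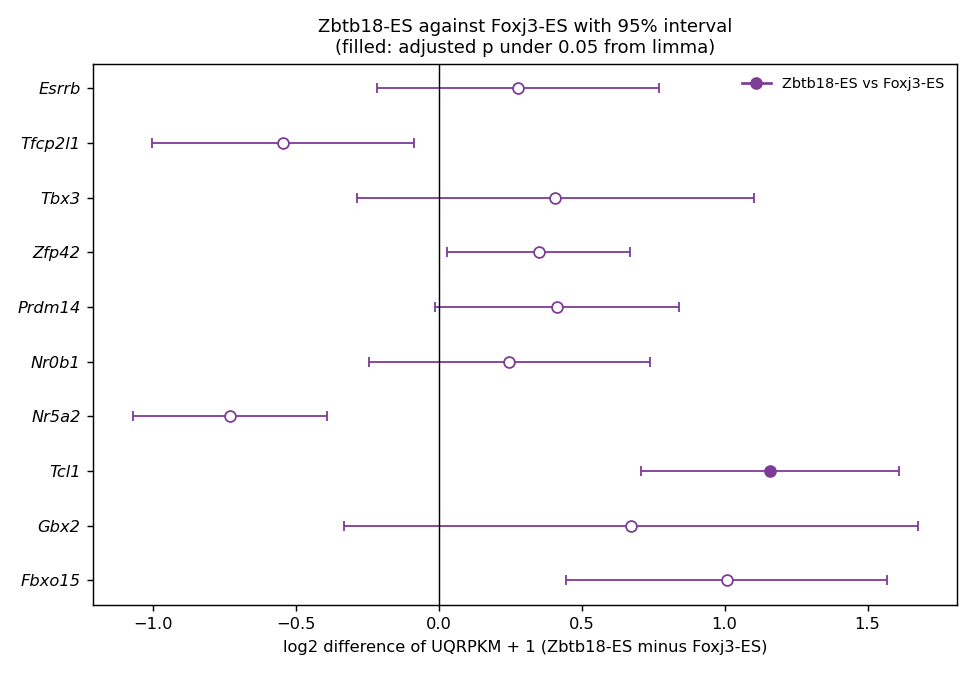
Log2 difference of UQRPKM + 1 between Zbtb18-ES and Foxj3-ES for each gene, with 95% intervals from limma; positive values are higher in Zbtb18-ES, and a filled point has an adjusted p under 0.05. Tcl1 is the filled point at 1.16, and Nr5a2 and Tfcp2l1 are the genes left of 0.

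In control ESCs the order of the levels ran, by mean, Esrrb, Zfp42, Nr0b1, Tfcp2l1, Tcl1, Nr5a2, Tbx3, Gbx2, Prdm14 and Fbxo15. Esrrb exceeded Zfp42, and Tfcp2l1 exceeded Tcl1, in 1 of the 3 control libraries only, replicate 2, so that both places rest on the library that stood apart in GC content. Neighbours overlapped for Esrrb and Zfp42, Nr0b1 and Tfcp2l1, Tfcp2l1 and Tcl1, Nr5a2 and Tbx3, and Tbx3 and Gbx2. In Foxj3-ES Zfp42 was first at 1442 ± 99.5 UQRPKM (SD, n = 3), followed by Nr0b1 at 1005 ± 206 and Esrrb at 974 ± 151, and Gbx2 came below Prdm14. Only Nr0b1 and Esrrb, and Tcl1 and Nr5a2, overlapped as neighbours there. In Zbtb18-ES the first 4 were Zfp42, Nr0b1, Esrrb and Tcl1, each overlapping with the next. Tfcp2l1 came next, then Tbx3 and Nr5a2, which overlapped, and Prdm14, Gbx2 and Fbxo15, each overlapping with the next. Summed over the 10 genes, the level was 4227 to 5107 UQRPKM in Foxj3-ES, 4618 to 7284 UQRPKM in Zbtb18-ES and 6796 to 8067 UQRPKM in control ESCs, so that the highest Zbtb18-ES library exceeded the lowest control. In bulk RNA, fewer cells that express a gene and less RNA per cell cannot be told apart.

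The genes with the most similar profile over the 9 libraries were sought among 11842 genes, by the root mean square difference of their log2 values after centring. Esrrb was closest to Dlc1 (0.08), Tfcp2l1 to Rab11fip4 (0.09), Zfp42 to Gid8 (0.06), Nr5a2 to Gab1 (0.09), Tbx3 to Arid5b (0.12), Tcl1 to Sned1 (0.13), Gbx2 to Klf13 (0.34), Prdm14 to 2810408M09Rik (0.15), Nr0b1 to Bad (0.16) and Fbxo15 to AI597468 (0.09). For comparison, the profile of Esrrb itself departed from flat by 0.48 and that of Gbx2 by 1.25. None of the 2 closest genes of any of the 10 was another of them.

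Relatives of these genes were mostly low or did not pass. The counts of this and the following lists stand beside shares of all genes tested of 7.01% lower and 7.54% higher in Foxj3-ES. In Zbtb18-ES the shares were 6.5% lower and 5.31% higher. Of 17 relatives, 10 were tested: none rose, and 1 fell in each line, a count near these shares. The gene that fell was Esrra, the estrogen-related receptor active in mitochondrial metabolism. It was at 76.6, 84.5 and 91.2 UQRPKM in Foxj3-ES, 98.8, 65.3 and 85.9 UQRPKM in Zbtb18-ES and 153.3, 193.0 and 154.6 UQRPKM in control ESCs. Its log2 fold changes were -0.98 (adjusted p = 0.00919) and -1.01 (adjusted p = 0.0110), and both lines lay below all controls. Tcl1b4 and Tcl1b5, which neighbour Tcl1, were listed at 0 in all 9 libraries, and Esrrg did not exceed 0.00565 UQRPKM. Prdm1, a relative of Prdm14, had a difference of 1.35 between Zbtb18-ES and Foxj3-ES that did not pass (adjusted p = 0.0901). Yy1, from which Zfp42 derives, changed by -0.63 in Foxj3-ES (adjusted p = 0.0591) and by -0.54 in Zbtb18-ES (adjusted p = 0.107).

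Among 8 partners of the proteins, Akt1, the kinase that Tcl1 activates, fell in both lines, with log2 fold changes of -0.49 in Foxj3-ES (adjusted p = 0.0377) and -0.51 in Zbtb18-ES (adjusted p = 0.0386). Cul1, the scaffold of the ubiquitin ligases that use F-box proteins such as Fbxo15, fell in Foxj3-ES by 0.77 (adjusted p = 0.0268). The other 6, among them Cbfa2t2, the partner of Prdm14, did not pass in either line. The median change of the 8 was 0.06 in Foxj3-ES and -0.09 in Zbtb18-ES.

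Of 8 genes of the signals upstream, 2 fell in each line and none rose. Socs3, a direct target and inhibitor of the LIF and Stat3 pathway, was at 294.7, 414.5 and 384.5 UQRPKM in Foxj3-ES, 418.9, 448.9 and 443.2 UQRPKM in Zbtb18-ES and 1058, 1194 and 918 UQRPKM in control ESCs, with both lines below all controls. Its log2 fold change was -1.54 in Foxj3-ES (adjusted p = 6.5e-04) and -1.26 in Zbtb18-ES (adjusted p = 0.00219). The shared receptor chain Il6st fell in Foxj3-ES (-0.75, adjusted p = 0.00873), and Tcf7l1, the repressor of Esrrb, fell in Zbtb18-ES (-0.95, adjusted p = 0.0305). Lifr, Jak1, Ctnnb1, Gsk3b and Axin2 did not pass in either line.

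In the wider network of 14 genes, 6 fell and 1 rose in Foxj3-ES, and 4 fell and 2 rose in Zbtb18-ES, with medians of -0.51 and -0.44. Nanog, Sox2 and Pou5f1 are also among the ESC markers above, and Pou5f1 is among the partners too, so these lists are not separate. Klf4, another target of Stat3, fell by 2.02 in Foxj3-ES (adjusted p = 1.3e-04) and by 1.59 in Zbtb18-ES (adjusted p = 4.9e-04). Mycn fell by 1.95 in Foxj3-ES (adjusted p = 2.0e-04) and by 2.32 in Zbtb18-ES (adjusted p = 9.7e-05). The core factor Nanog fell by 1.50 in Foxj3-ES (adjusted p = 0.00117) and by 0.93 in Zbtb18-ES (adjusted p = 0.0110). Sall4, a zinc finger partner of Oct4, fell by 1.23 in Foxj3-ES (adjusted p = 0.0157) and by 1.30 in Zbtb18-ES (adjusted p = 0.0157). Its controls were at 380.4, 856.0 and 410.3 UQRPKM, with the highest in replicate 2, the library that stood apart in GC content. Those that rose were the adhesion gene Pecam1, by 0.81 in Foxj3-ES and 1.26 in Zbtb18-ES (adjusted p = 0.0128 and 0.00307), and Dppa5a, by 1.34 in Zbtb18-ES (adjusted p = 0.0382). Pou5f1 did not pass (0.39 and 0.44, adjusted p = 0.144 and 0.116), although the libraries of both lines were above all controls.

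Of 9 genes typical of formative or primed cells, 8 were tested, and none was called higher in either line; Fgf5 was too low. Otx2, a factor that drives the formative state, was at 94.5, 49.4 and 61.6 UQRPKM in Foxj3-ES, 46.4, 29.4 and 41.2 UQRPKM in Zbtb18-ES and 39.2, 49.8 and 39.5 UQRPKM in control ESCs. In Foxj3-ES its log2 fold change was 0.62 (95% interval 0.01 to 1.23), which did not pass after adjustment (adjusted p = 0.161), and 1 of the 3 libraries lay within the range of the controls. In Foxj3-ES 1 fell, Foxd3 (-2.65, adjusted p = 0.0308). The controls of Foxd3 were at 53.2, 111.3 and 67.0 UQRPKM, again highest in replicate 2. In Zbtb18-ES 4 fell: Lef1 (-2.21), Sox3 (-1.99), Pou3f1 (-1.73) and Dnmt3a (-1.39), with adjusted p = 0.00198, 0.0138, 0.00530 and 0.0231. Dnmt3b, one of the methyltransferase genes that Prdm14 represses, did not pass: its change was 0.02 in Foxj3-ES (adjusted p = 0.946), and -0.26 in Zbtb18-ES (adjusted p = 0.252). Of the 3 neural progenitor markers, Sox1 fell in both lines (-2.13 and -2.53, adjusted p = 0.0459 and 0.0283), and Pax6 and Nes did not pass. The 5 fibroblast markers summed to 134.3 to 216.2 UQRPKM in Foxj3-ES, 54.9 to 81.7 UQRPKM in Zbtb18-ES and 143.6 to 149.6 UQRPKM in control ESCs, mostly Thy1, which fell in Zbtb18-ES (-1.14, adjusted p = 0.0137), while Col3a1 and Postn did not exceed 0.46 and 0.36 UQRPKM.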

How the data were processed

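Total RNA of 9 libraries had been sequenced on an Ion Proton, and the authors deposited upper-quartile scaled RPKM (UQRPKM) for every gene. The submitters' processing notes name mm10 and DESeq without versions. Aligner, counting step and annotation were not given in the sources used here. Genes that reached a UQRPKM of 1 in 3 or more libraries were tested on the log2(UQRPKM + 1) scale with limma 3.58.1 (R 4.3.3, trend option), with all 9 libraries in 1 model and Benjamini-Hochberg adjustment over all genes tested. Every adjusted p in the text comes from limma, and fold changes on this scale understate changes of low genes. No count test was run, since the values are not counts. The fit was first tested on simulated data.

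The 10 genes and the other lists were chosen with earlier results of these data known. All 10 are named. By rule, at most 4 genes per line of each other list are named, those with the largest change among those that passed. Further genes are named as defining markers, for their tie to 1 of the 10 or, in the wider network, because they rose. These further genes were chosen with their values seen. Likeness was measured among mRNA genes with a mean UQRPKM of at least 10. Alternatives covered the pseudocount, filter, scaling, gene type, GC content and length, a replicate block, the libraries in the fit and each library left out. They are not independent of one another, and several leave a given fold change as it was and alter only its adjusted p. Coordinates came from GENCODE M21 (GRCm38), and promoters from RefSeq (GRCm38.p6). Python 3.11.15 was used for the tables and plots.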

Additional observations from a re-analysis of the deposited data

Results flagged for a closer look

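Tcl1 was singled out because its change against control differed between the lines by the test of that difference itself. Its level was 320.9 ± 65.6 UQRPKM in Foxj3-ES, 725.5 ± 193 UQRPKM in Zbtb18-ES and 728.3 ± 45.5 UQRPKM in control ESCs (SD, n = 3 libraries each), and the change in Zbtb18-ES minus that in Foxj3-ES was 1.16 on the log2 scale (95% interval 0.71 to 1.61, adjusted p = 0.0356). The value kept its sign in all 20 alternatives (0.96 to 1.35), and its call was lost in 9 of them. The cause was not tested.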

How the results depend on the processing

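Of 600 fold changes of the 10 genes under the alternatives, 548 kept their sign and side of the threshold, 24 lost the call, 19 gained it and 9 changed sign, none of which had passed the test. The number of the 10 called lower in Foxj3-ES was 4, and became 8 with all libraries scaled to the same sum. It was 6 after quantile normalization and with a replicate block, with or without GC and length correction, and 5 among mRNA genes only. Over all genes, 1562 of 22268 were called lower in Foxj3-ES as deposited and 4700 of 22320 with the same sum. After quantile normalization 1703 of 22268 were, with a replicate block 1305 of 22268, and with GC and length correction added to the block 1319 of 19350. Among mRNA genes only, 1622 of 15049 were. With 1 library left out the number of the 10 ranged from 3 to 4, and that of all genes from 755 to 1506. In Zbtb18-ES the number of the 10 was 4. There it became 5 with the same sum and among mRNA genes only, and was 3 with no filter. It ranged from 2 to 4 with 1 library left out. Over all genes, 1447 of 22268 were called lower in Zbtb18-ES as deposited. That number was 2747 of 22320 with the same sum, 1657 of 15049 among mRNA genes only and 1183 of 29794 with no filter. With 1 library left out 650 to 1411 of all genes were called lower. Between the lines, 1 gene (Nr5a2) was called lower among mRNA genes only and after GC and length correction with or without a replicate block. None of the 10 was called higher with no filter, with a replicate block or with only the libraries of the 2 groups, and 0 to 1 with 1 library left out. Over all genes, 80 of 22268 were called lower between the lines as deposited and 189 of 15049 among mRNA genes only. After GC and length correction 190 of 19350 were, and 79 of 19350 with the block added. As deposited 73 of 22268 were called higher, with no filter 48 of 29794 and with a replicate block 35 of 22268. With only the 2 groups the number was 48 of 21059, and 14 to 132 with 1 library left out.

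Sign changes were those of Zfp42 in Zbtb18-ES (-0.10 with the same sum, -0.064 after quantile normalization, -0.17 after GC and length correction with or without a replicate block, -0.045 to 0.20 with 1 library left out, lowest without Zbtb18-ES replicate 2), Nr0b1 in Foxj3-ES (-0.20 to 0.095 with 1 library left out, highest without Foxj3-ES replicate 1), Nr0b1 in Zbtb18-ES (-0.085 to 0.29, lowest without Zbtb18-ES replicate 2), Nr0b1 between the lines (-0.0018 to 0.37, lowest without Zbtb18-ES replicate 2) and Tcl1 in Zbtb18-ES (-0.23 to 0.15, highest without Zbtb18-ES replicate 1). The cause was not tested.

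Libraries with the same number deviated together with correlations of -0.05 to 0.08, none of 9 pairs over 0.1, so the numbers were not taken to pair the samples. With a replicate block, Tfcp2l1 and Tbx3 also passed in Foxj3-ES (adjusted p = 0.0443 and 0.0356) and Esrrb in Zbtb18-ES (0.0199). Prdm14 in Zbtb18-ES (0.0572) and the difference of Tcl1 between the lines (0.0625) did not. Depth limits Fbxo15 and Gbx2 most, with at least 20 and 37 reads per library by the lower of the possible estimates.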
